A study of Rattus norvegicus with 2 samples.

Results

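Chemokines, interleukins and the tumor necrosis factor (TNF) family, with their receptors, were examined in dorsal root ganglia (DRGs) of rats carrying an osteolytic tumor in 1 tibia. The members were all genes of the array whose symbol names a numbered chemokine or chemokine receptor (Ccl, Cxcl, Ccr, Cxcr, Ackr), Cx3cl1, a numbered interleukin or interleukin receptor (Il), Tnf, or a numbered TNF ligand or receptor (Tnfsf, Tnfrsf), without Tnfrsf11a and Tnfrsf11b. This gave 113 genes of 14217 with a single symbol on the array. In female SD rats of 4 weeks, the marrow of the right tibia received 100000 IP-B12 cells, which come from a pulmonary carcinoma of the rat and destroy bone. DRGs, which hold the cell bodies of sensory neurons (SNs), were taken 14 days later. The tumor group is 1 array of DRGs from the inoculated side, and the control group is 1 array of DRGs from the left side of the rats. Both sides thus came from tumor-bearing animals, and whether the left tibia had a sham injection and how many rats stood behind an array are not stated in the sources read here. The tumor and the inoculation itself cannot be told apart.

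Chemokines are small secreted proteins that attract leukocytes through G protein-coupled receptors, and several atypical receptors (the Ackr genes) bind and remove them without such signalling. Interleukins and TNF ligands act on paired receptor chains or trimeric receptors that feed into the JAK-STAT and NF-kB pathways. In sensory ganglia, CCL2, IL-1, IL-6 and TNF are known for their part in pain after nerve injury, and they can come from neurons, satellite glia and resident macrophages. In whole ganglia, fewer cells of a type and less RNA per cell cannot be told apart.

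Each value is a MAS 5.0 signal intensity of a probe set, a group of short probes against 1 transcript. Signals are set against the median of their array, and those of marker lists are summed, so that a bright gene weighs most in a sum. Apart from this, signals of different genes are not set against each other here. Where a gene had several probe sets, the one with the highest mean log2 signal stands for it. A gene counted as above the signal rule if its signal reached the median of its array, 72.7 on the tumor side or 69.0 on the control side, on at least 1 side. The tumor-side array was 5.98% brighter in its trimmed mean, and the median log2 ratio of tumor over control side, over the 9695 genes above the rule, was 0.08. Since each side has a single array, no replicate error exists and nothing was tested, so every difference describes these 2 arrays. As a scale for the ratios, the text gives the SD of log2 ratios among probe sets that share a gene, which is no replicate error, and the middle 95% of the log2 ratios of all probe sets of like signal. The ganglia carried their defining markers, since all 10 measured SN markers were above the rule, with summed signals of 49257 on the tumor side and 49539.8 on the control side. The median log2 ratio of these markers was -0.02, and 9 of the 10 lay under the median of all genes.

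Most members were dim. Of the 113, 79 lay under the median of the tumor-side array and 80 under that of the control-side array, and 34 (30.1%) were above the signal rule, against 68.2% of all genes. None of the 34 was 2 times higher or lower on the tumor side. Among all genes that met the rule, the share was 0.134% for higher and 0.186% for lower signals. At a fold of 1.5, 1 of the 34, Ccl5, was higher and none was lower, where 1.19% of all genes were higher and 0.743% were lower. A log2 ratio above 0 was found for 24 of the 34 (70.6%), beside 70.9% of all genes, and after quantile normalization the shares were 61.8% of the members and 49.8% of all genes. The median log2 ratio of the 34 was 0.13, with quartiles of -0.02 and 0.25, beside 0.08 for all genes. None of the 34 lay outside the middle 95% of the ratios of probe sets of like signal, where 5% of all probe sets lie by construction. The 19 ligands and the 15 receptors above the rule had medians of 0.14 and 0.13.

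Some marker lists of other cell types had larger ratios. All 5 measured bone markers were above the rule, with a median log2 ratio of 1.01 and summed signals of 1809 on the tumor side and 797 on the control side. The 6 skeletal muscle markers had a median of -1.44, with summed signals of 2097 on the tumor side and 2635 on the control side. Of the 6, 5 were lower on the tumor side, while Myh1 had 1742 on the tumor side and 1583 on the control side. Of 5 measured granulocyte markers 3 were above the rule, with a median of -1.19 and summed signals over all 5 of 561 on the tumor side and 1167 on the control side. The macrophage list, whose cells carry many of the receptors, had 9 of 12 markers above the rule, a median of 0.16 and summed signals over all 12 of 1962 on the tumor side and 1752 on the control side. No marker of these lists was listed at 0, and their part in the values of the members was not tested.

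**Figure D1:**
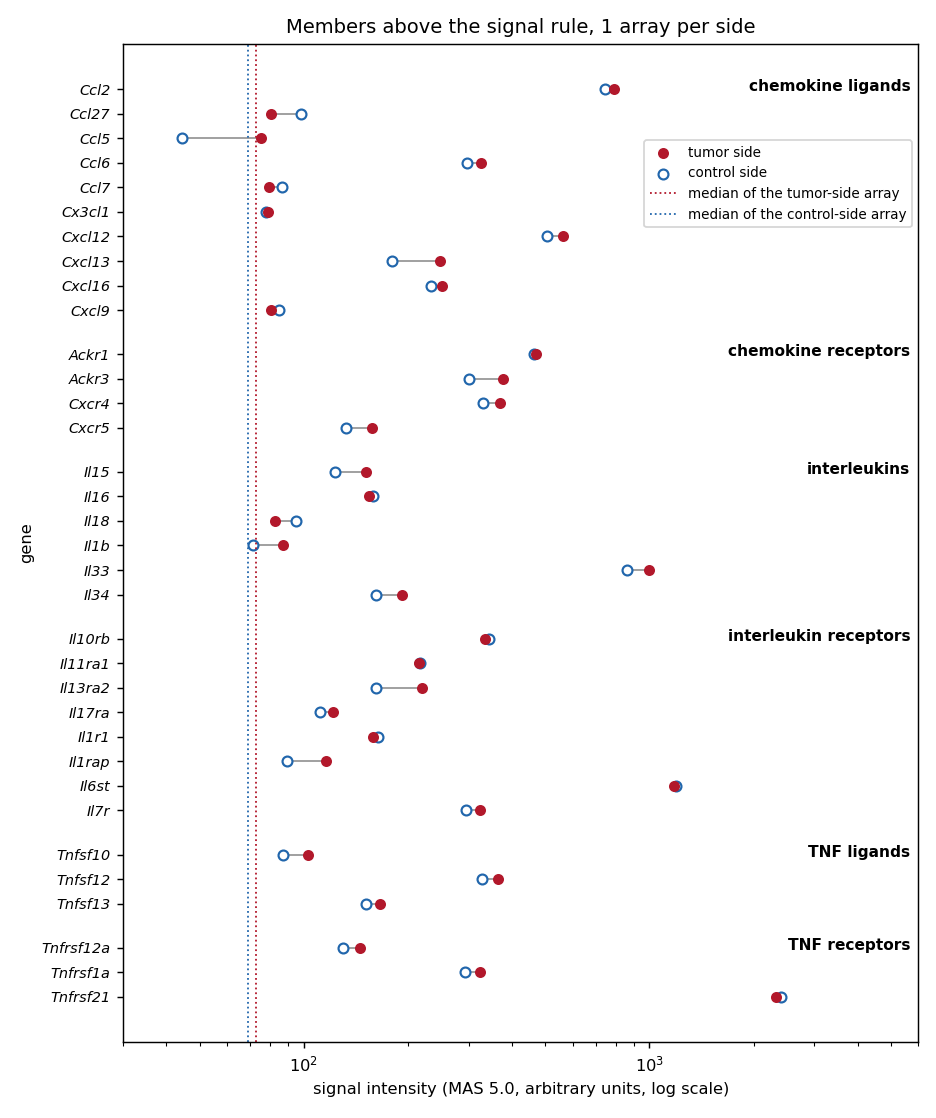
Signal intensity on a log scale (x axis) of the 34 members above the signal rule, in rows by role, with the tumor-side array as filled and the control-side array as open points and dotted lines at the array medians of 72.7 and 69.0. The points of most genes nearly coincide, and Ccl5 has the widest gap, with 75.1 on the tumor side and 44.6 on the control side.

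Among 28 chemokine ligands, 10 were above the rule, with a median log2 ratio of 0.10. Ccl5, which encodes RANTES, an attractant of T cells and monocytes, had a signal of 75.1 on the tumor side and 44.6 on the control side, a ratio of 1.69 (log2 ratio 0.75). It met the signal rule through the tumor side alone, the only member to do so, and a gene that passes in this way has to be higher there. The SD among probe sets that share a gene was 0.39 at its signal, taken over 592 genes, so its log2 ratio was 1.95 times this spread. Probe sets with a mean signal from 32 to 64 had log2 ratios between -0.76 and 0.86 in their middle 95%, and Ccl5 lay within it. T cells are a known source of CCL5, and of 8 measured T cell markers 1 was above the rule, with summed signals over the list of 196 on the tumor side and 224 on the control side. Of the 8, 1 (Cd3d) was under the brightest bacterial control probe set (trp) on both sides, and none was listed at 0. Cxcl13, which guides B cells into lymphoid tissue, had 247 on the tumor side and 179 on the control side (ratio 1.38, log2 ratio 0.46). Its log2 ratio was 2.50 times the SD of 0.19 between probe sets of a gene, and lay just within the upper limit of 0.48 for its signal. After quantile normalization, the log2 ratio of Cxcl13 was 0.38. All 3 measured B cell markers were below the rule, with summed signals of 96.7 on the tumor side and 82.9 on the control side. Of the 3, 1 (Cd79b) was under the trp probe set on both sides, while Cd22 had 71.0 on the tumor side and 63.4 on the control side. The part of T and B cells in these values was not tested.
Ccl2, the monocyte attractant induced in injured SNs, had 791 on the tumor side and 745 on the control side (log2 ratio 0.09), beside 0.08 for all genes. Ccl7, a close relative of Ccl2 that also attracts monocytes, had 79.2 on the tumor side and 86.6 on the control side (log2 ratio -0.13). Cx3cl1, the membrane-bound chemokine fractalkine of neurons, had 78.6 on the tumor side and 77.9 on the control side (log2 ratio 0.01). The log2 ratio of Ccl7 was -0.45 times the SD at its signal. Cxcl12, the homeostatic ligand of CXCR4, had 561 on the tumor side and 504 on the control side (log2 ratio 0.15), while its other probe set above the rule had a log2 ratio of -0.04. Cxcl16, a transmembrane chemokine, had 251 on the tumor side and 233 on the control side (log2 ratio 0.11), and Ccl6, a rodent chemokine of myeloid cells, had 326 on the tumor side and 297 on the control side (log2 ratio 0.14). Cxcl9, an interferon-induced attractant of T cells, had 80.1 on the tumor side and 84.5 on the control side (log2 ratio -0.08), and its dimmer probe set pointed the other way, with 0.29. Ccl27, an attractant of skin-homing T cells, had the lowest ratio of all 34, with 80.4 on the tumor side and 98.4 on the control side (log2 ratio -0.29), which is -1.02 times the SD at its signal.

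Promoters of RefSeq (assembly GRCr8), from 250 bases before to 50 bases after the start site, were matched to 86 of the 113 members, and to 25 of the 34 above the rule. The table held none for Ccl5, Ccl2 and Il13ra2. Cxcl13 and Ccl27 had the highest and lowest ratios of the chemokines above the rule with a promoter, and the window of Ccl7 holds 4 of the 5 motifs searched. The promoters of these genes are printed 5′ to 3′ on the strand of the gene. Cxcl13 lies at chr14:13917871-13918170 (minus strand), Ccl7 at chr10:67513845-67514144 (plus strand) and Ccl27 at chr5:61741730-61742029 (minus strand), and capitals mark motif matches.
Cxcl13: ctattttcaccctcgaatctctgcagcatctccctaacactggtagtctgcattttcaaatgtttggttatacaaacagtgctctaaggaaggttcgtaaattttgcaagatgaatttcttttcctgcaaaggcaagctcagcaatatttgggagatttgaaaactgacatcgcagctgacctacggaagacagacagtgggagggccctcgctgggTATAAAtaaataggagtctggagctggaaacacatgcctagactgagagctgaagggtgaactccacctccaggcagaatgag
Ccl7: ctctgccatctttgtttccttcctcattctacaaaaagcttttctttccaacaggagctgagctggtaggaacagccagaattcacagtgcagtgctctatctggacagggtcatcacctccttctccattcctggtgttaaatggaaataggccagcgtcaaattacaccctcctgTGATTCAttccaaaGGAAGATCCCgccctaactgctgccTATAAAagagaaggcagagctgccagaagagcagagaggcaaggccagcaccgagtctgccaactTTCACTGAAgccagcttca
Ccl27: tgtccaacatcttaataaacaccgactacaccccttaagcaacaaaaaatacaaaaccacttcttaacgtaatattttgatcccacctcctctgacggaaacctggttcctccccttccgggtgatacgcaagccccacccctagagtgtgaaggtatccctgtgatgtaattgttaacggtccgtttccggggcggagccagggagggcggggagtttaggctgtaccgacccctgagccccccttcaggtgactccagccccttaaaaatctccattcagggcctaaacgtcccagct
The motifs, read on both strands, were the TATA box (TATAAA), an AP-1 pattern (TGANTCA), the STAT element GAS (TTCNNNGAA), the interferon element ISRE and the NF-kB consensus. The AP-1 pattern takes any base in its middle, which is a T in the match of Ccl7. In Ccl7 they were a TATA box 34 bases before the start site, an NF-kB match on the other strand 59 bases before it, an AP-1 match 73 bases before it and a GAS match after it. The AP-1 and GAS letters each read the same motif on both strands, and different motifs did not overlap. Cxcl13 held a TATA box 33 bases before the start site, and no searched motif was in the window of Ccl27. The NF-kB consensus was in 17 of 88 promoters of members (19.3%) and in 7.51% of all 33469 promoters, and the ISRE in 10 of 88 (11.4%) and 3.92% of all. The TATA box was in 21 of 88 (23.9%) and 14.2% of all, and the AP-1 pattern in 12 of 88 (13.6%) and 7.33% of all. For GAS the shares were closer, with 10 of 88 (11.4%) and 8.87% of all. A match is a run of letters and not a shown site. The log2 ratio of Ccl7 in these DRGs, -0.13, was -0.45 times the SD at its signal, and the part of its motifs was not tested.

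Chemokine receptors were represented by 15 genes, of which 4 were above the rule, with a median log2 ratio of 0.21, and 3 of the 4 lay above the all-gene median. Ackr3, the atypical receptor that scavenges CXCL12, had 377 on the tumor side and 300.2 on the control side (log2 ratio 0.33). This is 2.04 times the SD at its signal, within the upper limit of 0.38 for probe sets of like signal. After quantile normalization, the log2 ratio of Ackr3 was 0.24. Cxcr4, the signalling receptor of CXCL12, had 369 on the tumor side and 329 on the control side (log2 ratio 0.16). All 3 probe sets of Cxcr4 were above the rule, with log2 ratios from -0.02 to 0.38, so the probe sets of this 1 gene spanned more than the 3 genes of the CXCL12 axis did. Ackr1, the atypical receptor of venular endothelium and red cells, had 470.4 on the tumor side and 464 on the control side (log2 ratio 0.02). Cxcr5, the receptor of CXCL13 on B cells, had 158 on the tumor side and 132 on the control side (log2 ratio 0.25). Its other probe set had 3.82 on the tumor side and 3.39 on the control side, below the brightest probe set for the bacterial trp transcript, which serves as a floor here and reached 4.63 on the tumor-side and 5.39 on the control-side array. Ccr2, the receptor of CCL2, had 2.91 on the tumor side and 8.45 on the control side, and the tumor-side value did not exceed this floor, so no fold is given. Ccr1, a receptor of CCL5, had 58.6 on the tumor side and 53.0 on the control side (log2 ratio 0.14), just below the rule. Cxcr2, the neutrophil receptor, had 3.55 on the tumor side and 3.65 on the control side, both under the floor.

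**Figure D2:**
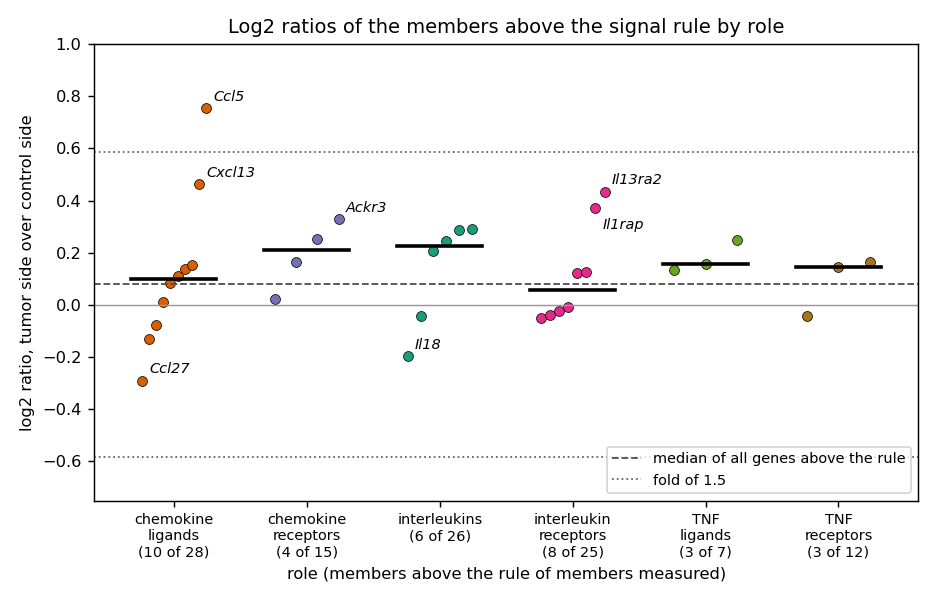
Log2 ratio of the signals, tumor side over control side (y axis), of the members above the signal rule, 1 point per gene, by role (x axis), with a bar at the median of each role, a dashed line at the all-gene median (0.08) and dotted lines at a fold of 1.5. Ccl5 (0.75) is the only point past a dotted line, and the role medians lie between 0.06 and 0.23.

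Of 26 interleukins and their soluble inhibitors, 6 were above the rule, with a median log2 ratio of 0.23. Il33, the nuclear alarmin of barrier cells and glia, had 995 on the tumor side and 863 on the control side (log2 ratio 0.21), and its second probe set had 569 on the tumor side and 445 on the control side (log2 ratio 0.36). The log2 ratio of the first was 1.97 times the SD of 0.10 at its signal, and was 0.11 after quantile normalization and 0.12 after centring or loess. Its receptor Il1rl1 (ST2) was below the rule, with 22.9 on the tumor side and 14.3 on the control side. Il34, a ligand of the macrophage receptor CSF1R, had 192 on the tumor side and 162 on the control side (log2 ratio 0.25). Il15, a growth factor of T and NK cells, had 151 on the tumor side and 123 on the control side (log2 ratio 0.29). Il1b, the inflammasome product that sensitizes nociceptors, had 87.0 on the tumor side and 71.3 on the control side (log2 ratio 0.29), under 1 SD (0.30) at that signal. Il18, matured by the same caspase as IL-1β, had 82.8 on the tumor side and 94.8 on the control side (log2 ratio -0.20). Il16, an attractant of CD4+ cells, had 154 on the tumor side and 159 on the control side (log2 ratio -0.04). The log2 ratios of Il1b and Il18 were of opposite sign, and that of Il18 was -0.69 times the SD at its signal, so both were under 1 SD in size. Il6, which signals through gp130, had 14.6 on the tumor side and 12.2 on the control side. Il10, an anti-inflammatory interleukin, had 1.12 on the tumor side and 0.906 on the control side, and Il1rn, the IL-1 receptor antagonist, had 1.31 on the tumor side and 1.58 on the control side, all under the floor. Il1a had 23.5 on the tumor side and 29.6 on the control side, below the rule like Il6.

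The interleukin receptors, 8 of 25 above the rule, had a median log2 ratio of 0.06, and 4 of the 8 lay above and 4 below 0. Il13ra2, the decoy receptor of IL-13, had 219 on the tumor side and 162 on the control side (ratio 1.35, log2 ratio 0.43), 2.26 times the SD at its signal. Its log2 ratio lay within the upper limit of 0.48 for probe sets of like signal. It was 0.36 after quantile normalization and 0.35 after centring or loess. Il1rap, the accessory chain that IL-1 and IL-33 receptors share, had 116 on the tumor side and 89.3 on the control side (ratio 1.30, log2 ratio 0.37), and its dimmer probe set had 35.3 on the tumor side and 20.4 on the control side. Il1r1, the signalling receptor of IL-1, had 159 on the tumor side and 164 on the control side (log2 ratio -0.05). Its 2 other probe sets were below the rule and pointed in opposite directions. The brighter one had 27.7 on the tumor side and 10.7 on the control side. The dimmer one had 1.65 on the tumor side, under the floor, and 13.8 on the control side, so no fold is given. Il6st, which encodes gp130, the chain shared by receptors of the IL-6 family, had 1176 on the tumor side and 1195 on the control side (log2 ratio -0.02). All 4 probe sets of Il6st were above the rule, with log2 ratios from -0.02 to 0.17. Il11ra1, a partner of gp130 that binds IL-11, had 215 on the tumor side and 217 on the control side (log2 ratio -0.01), and Il6r, the chain that binds IL-6, lay below the rule, with 50.4 on the tumor side and 64.4 on the control side (log2 ratio -0.35). Il10rb, a chain of the IL-10 and IL-22 receptors, had 334 on the tumor side and 343 on the control side (log2 ratio -0.04). Il17ra, the common IL-17 receptor chain, had 121 on the tumor side and 111 on the control side (log2 ratio 0.12). Il7r, the IL-7 receptor of lymphocytes, had 322 on the tumor side and 295 on the control side (log2 ratio 0.13), and its second probe set had a log2 ratio of 0.08. Il4r had 14.04 on the tumor side and 27.1 on the control side, and Il10ra had 52.1 on the tumor side and 62.1 on the control side, both below the rule.

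In the TNF family, 3 of 7 ligands and 3 of 12 receptors were above the rule, with median log2 ratios of 0.16 and 0.14. Tnf itself had 2.18 on the tumor side and 3.42 on the control side, and its second probe set had 2.11 on the tumor side and 1.03 on the control side, all under the floor. Tnfsf12, which encodes TWEAK, had 365 on the tumor side and 328 on the control side (log2 ratio 0.16). Its receptor Tnfrsf12a (FN14), known to be induced in injured neurons, had 146 on the tumor side and 130 on the control side, the same log2 ratio of 0.16. Tnfsf10, which encodes the death ligand TRAIL, had 103 on the tumor side and 86.8 on the control side (log2 ratio 0.25), under 1 SD (0.27). Tnfsf13, the B cell factor APRIL, had 166 on the tumor side and 151 on the control side (log2 ratio 0.13), with 0.31 on its second probe set. Tnfrsf1a, the widely expressed TNF receptor with a death domain, had 323 on the tumor side and 292 on the control side (log2 ratio 0.14), 0.88 times the SD. Tnfrsf1b, the TNF receptor of immune cells, had 2.67 on the tumor side and 3.05 on the control side, both under the floor. Tnfrsf21, which encodes the neuronal death receptor DR6, had 2327 on the tumor side and 2399.55 on the control side (log2 ratio -0.04), and its second probe set had 1739 on the tumor side and 1950.4 on the control side (log2 ratio -0.17). It was the 1 member of the TNF family above the rule with a lower signal on the tumor side, on both probe sets. Its main log2 ratio was -0.59 times the SD of 0.07 at its signal, and was -0.13 after quantile normalization or centring and -0.12 after loess. The log2 ratio of its second probe set lay below the lower limit of -0.10 for probe sets of like signal.

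**Figure D3:**
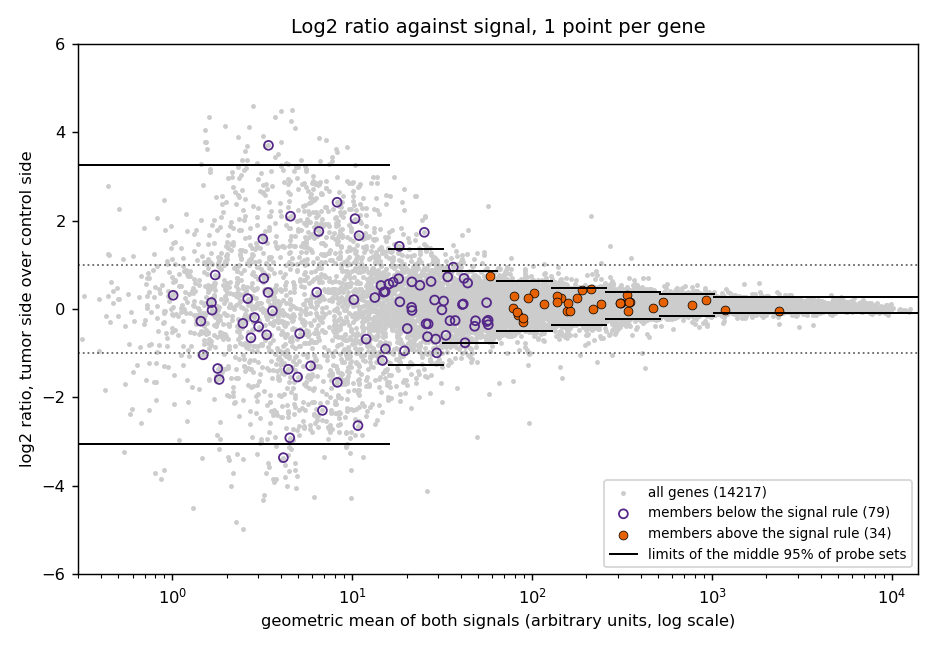
Log2 ratio of the signals, tumor side over control side (y axis), against the geometric mean of both signals (x axis, log scale), 1 point per gene, with all 14217 genes in grey, the 34 members above the signal rule filled and the 79 below it open. Black steps bound the middle 95% of probe sets in each range of signal and dotted lines mark a fold of 2. All 34 filled points lie within the steps, and 5 of the 79 open points lie outside them. The 5 are Ccr3, Il36rn, Il3ra, Cxcl6 and Il22ra2. Cxcl6 and Il22ra2 each rest on a signal under the floor on 1 side.

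Of the 79 members below the rule, 31 did not exceed the floor on at least 1 side, 17 of them on both. Of the 48 that exceeded it on both sides, 3 had a tumor-side signal past a fold of 2 upward and 2 past it downward, beside 5.24% and 5.67% of all 3208 genes in this range. Higher were Il36rn, an antagonist of IL-36 (45.8 on the tumor side and 13.8 on the control side), Tnfrsf4, which encodes the costimulatory receptor OX40 of T cells (19.4 on the tumor side and 6.12 on the control side), and Ccr3, the eotaxin receptor of eosinophils (29.8 on the tumor side and 11.1 on the control side). Lower were Ccr6, the receptor of CCL20 (9.81 on the tumor side and 22.0 on the control side), and Il5, the eosinophil growth factor, whose 4.64 on the tumor side barely exceeded the floor and stood against 14.7 on the control side. Their SDs between probe sets of a gene were from 0.64 for Il36rn to 1.30 for Il5. The log2 ratios of 1.74 for Il36rn and -1.66 for Il5 were thus 2.71 and -1.28 times the SD. Il36rn and Ccr3 (log2 ratio 1.42) lay above the upper limit of 1.36 for probe sets of like signal. Tnfrsf4, Ccr6 and Il5 lay within their limits. Il3ra, short of a fold of 2 with 50.5 on the tumor side and 26.2 on the control side (log2 ratio 0.95), lay above its limit of 0.86. Over all 113 members, 4.42% lay outside, beside 5% of all probe sets by construction. Among the chemokines below the rule, Ccl3 had 31.2 on the tumor side and 31.7 on the control side, Cxcl10 had 43.0 on the tumor side and 39.7 on the control side, and Cxcl14 had 20.8 on the tumor side and 13.7 on the control side. Cxcl1, a neutrophil attractant, had 1.12 on the tumor side and 2.85 on the control side, both under the floor.

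Of 23 members with several probe sets, 16 had log2 ratios of both signs. For 7 members, 2 or more probe sets were above the rule, and their log2 ratios differed by 0.04 (Il7r) to 0.40 (Cxcr4). For 11 members, the ratios differed in sign and by more than 0.5, and in each of them at most 1 probe set was above the rule. Ccl22, an attractant of regulatory T cells, had 21.0 and 3.26 on the tumor side against 5.09 and 8.87 on the control side on its 2 probe sets, which thus pointed in opposite directions. Tnfrsf17, a receptor of plasma cells, had 4.30 and 12.2 on the tumor side against 26.8 and 4.96 on the control side on its 2 probe sets, and Cxcl3, with 5 probe sets, had log2 ratios from -1.30 to 1.02. A Cxcl3 probe set with 3.17 on the tumor side was under the floor there, and neither end of this range rests on it. The others were Ackr2 (-0.51 to 0.18), Cxcl14 (-0.59 to 0.61), Il10ra (-0.25 to 1.51), Il17re (-0.33 to 1.63), and Il1r1, Il1rl1, Tnfsf11 and Tnf. No range of log2 ratios is given for Ccl22, Tnfrsf17 and the last 4, each of which had a probe set under the floor on at least 1 side.

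**Figure D4:**
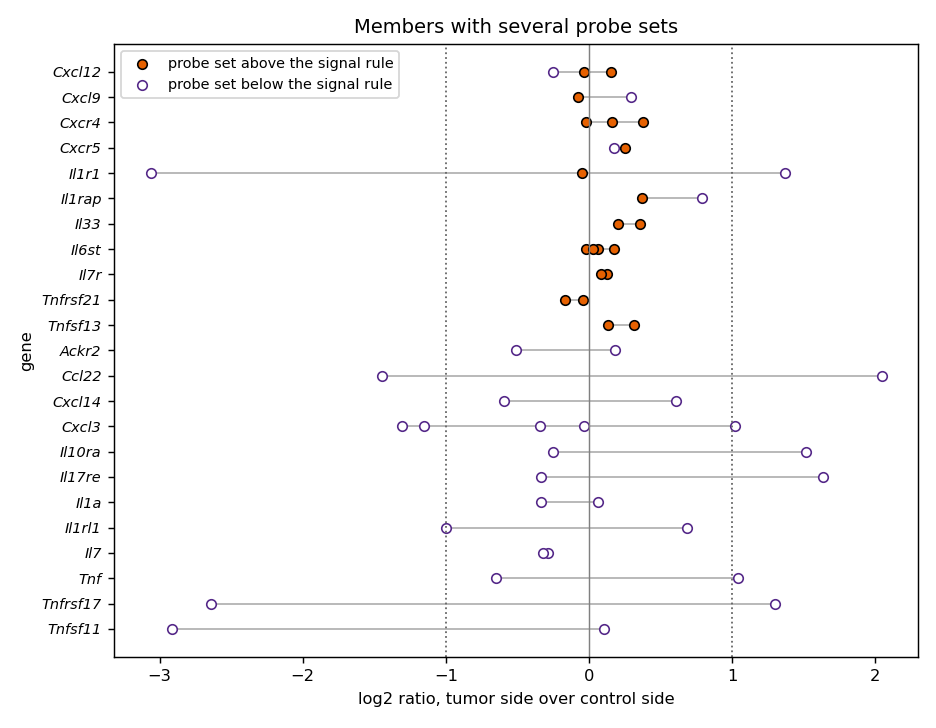
Log2 ratio of the signals, tumor side over control side (x axis), of every probe set of the 23 members with several, 1 row per gene, filled where the probe set was above the signal rule and open where it was below, with dotted lines at a fold of 2. Filled points of a gene lie within 0.40 of each other. Open points spread more widely, and some of them rest on a signal under the floor, so their distances have no exact meaning.

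Of 35 measured cytokines and receptors outside the name rule, 18 were above the signal rule, with a median log2 ratio of 0.11. None was past a fold of 2, beside 0.134% of all genes above the rule higher and 0.186% lower. At a fold of 1.5, 2 were higher and 1 was lower, where 1.19% of all genes were higher and 0.743% were lower. Lifr, the receptor of LIF and a partner of gp130, had 83.9 on the tumor side and 52.4 on the control side (log2 ratio 0.68). Eda, a TNF ligand of skin appendages, had 86.0 on the tumor side and 57.0 on the control side (log2 ratio 0.59). Crlf2, the TSLP receptor, had 69.8 on the tumor side and 106 on the control side (log2 ratio -0.60). Lifr and Eda met the rule through the tumor side alone, and so had to be higher there. Crlf2 met it through the control side alone, which by construction favours a lower tumor-side signal. Of 50 measured genes of signal transduction (JAKs, STATs, SOCS proteins, adaptors and NF-kB), 33 were above the rule, with a median of 0.05. None of the 33 was past a fold of 1.5, beside 1.19% of all genes higher and 0.743% lower. The lowest was Nfkbia, the inhibitor of NF-kB that NF-kB itself induces, with 175 on the tumor side and 236 on the control side (log2 ratio -0.43), and the highest was Ripk1, a kinase of TNF receptor signalling, with 88.5 on the tumor side and 62.8 on the control side (log2 ratio 0.49). Ripk1 met the rule through the tumor side alone, and so had to be higher there.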

How the data were processed

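The authors hybridized cRNA made from 100 ng of total RNA to GeneChip rat genome arrays, 1 per side, and deposited a signal intensity per probe set on a linear scale, computed with Microarray Suite 5.0 (MAS5) at default settings. Background correction and probe summary are part of these deposited intensity values. The control probe set at the end of the beta-actin transcript had 9.22 times the signal of the one at its start on the tumor side. On the control side it had 8.79 times, and for GAPDH the ratios were 1.23 on the tumor side and 1.20 on the control side. How this bears on dim signals or on probe sets that disagree was not tested. The target of their scaling is not given in the sources read.

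Log2 ratios of tumor over control side were computed without a pseudocount or further scaling. Of 31042 probe sets, 20826 have 1 symbol, 436 have several (among them both of Il13ra1, which were not used) and 9780 are unnamed here. All 113 members matched RefSeq (GRCr8) by gene ID, and 0 symbols differed. The SD between probe sets pools genes within a fold of 2 of the stated signal, over probe sets within 1 log2 unit of their gene's mean. Each side being a single array, nothing was tested, and that number limits the precision. Members, lists and tests were chosen with earlier results of these data known. Named were members past a fold of 1.5, up to 4 per role with the largest ratios, 39 measured members of a list of 44 on pain and nerve injury, dim members past a fold of 2 and members whose probe sets disagreed. Ccl6, Ccl7, Cxcl6, Cxcl9, Il3ra, Il11ra1 and Il22ra2, the other genes of signalling named, and the promoters and motifs were chosen after values were seen. Il31ra, Tnfsf13b and Tnfrsf10b were not analysed here, and 1 further item is not reported here. The ratio step was run on simulated data built from known ratios, which checks its arithmetic only. The count step was not checked in this way. Ratios were computed in Python 3.11.15 with pandas 2.3.3 and numpy 2.4.6, loess with statsmodels 0.14.6 and figures with matplotlib 3.10.9. The alternatives are given in the closing section.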

Additional observations from a re-analysis of the deposited data

How the results depend on the processing

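Ratios were recomputed after quantile normalization, centring on the median and loess (span 0.3), with a pseudocount of 11.1, with the mean over all probe sets, probe sets with IDs ending in _x_at, _s_at or _a_at left out, no signal filter, the median required of both signals, and folds of 1.5 and 3. No member above the signal rule was past a fold of 2 under any of them that kept the rule and the fold. Without a signal filter, 9 members were at least 2 times higher and 12 at least 2 times lower (4.31% and 3.71% of all genes), and the median log2 ratio was 0.040 for chemokine receptors and -0.12 for TNF receptors, which by construction adds the dim members. With a fold of 1.5, 1 was higher. The median of the members, 0.13, was 0.05 after quantile normalization, centring or loess, where the median of all genes was 0.00, and 21, 22 and 21 of the 34 members were then above 0. All other medians moved by less than the SD between probe sets of a gene. Of 343 values of single members, 329 moved by less than that SD and 14 by more. Of the 14, 7 were with the mean over all probe sets, such as Cxcl12 at -0.04 and Il1r1 at -0.58. This mean for Il1r1, the lowest of the members above the rule, includes its probe set under the floor. Another 3 of the 14 were Tnfrsf21, at -0.13 after quantile normalization or centring and -0.12 after loess. Ccl5 was between 0.63 with the pseudocount and 0.75, and was left out where both signals had to reach the median. No paired analysis was possible because a side has only 1 array, and leaving out an array leaves no comparison.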
